A study of Mus musculus with 24 samples.

Results

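The transcripts of 9 genes that build, cut or read linear ubiquitin chains were followed in cells sorted from the mouse ileum. These were the genes of the 3 subunits of the linear ubiquitin chain assembly complex (LUBAC), namely Rbck1, which encodes HOIL1, Rnf31, which encodes HOIP, and Sharpin. They also included the deubiquitinase genes Otulin and Cyld, Spata2 for the adaptor that joins CYLD to HOIP, Tnfaip3 for A20, Tnip1 for its binding partner ABIN1, and Ikbkg for NEMO. The genes were chosen by name for these roles out of the 39056 genes counted, and all 9 passed the filter on low counts in both sorted fractions. The question was whether loss of Rbck1 transcript went with altered transcript levels of its partners and antagonists.

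LUBAC joins ubiquitin molecules head to tail through the N-terminal methionine, with HOIP as the subunit that forms the linear bond and HOIL1 and SHARPIN as the subunits that stabilise it. At receptors for tumour necrosis factor, interleukin-1 and bacterial products, linear chains are bound by NEMO, the regulatory subunit of the kinase complex that activates NF-kB, and they restrain cell death. OTULIN cleaves linear chains, CYLD cleaves linear and lysine-linked chains, and A20 binds linear chains with the help of ABIN1. In the intestine these proteins are known for limiting inflammation and the death of epithelial cells, and Tnfaip3 and Tnip1 are themselves known as NF-kB target genes.

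The mice were C57BL/6, were 9.0 to 10.3 weeks old and all carried floxed alleles of Il4ra, the gene of the receptor chain shared by IL-4 and IL-13. They were Hoil1+/+ or Hoil1-/-, and Il4ra flox/flox without Cre (f/f) or with Vil1cre (ΔIEC), which deletes Il4ra in Villin-expressing intestinal epithelial cells. The Hoil1-/- allele (Rbck1tm1Kiwa) acts in the whole body and still allows a reduced level of the N-terminal domain of HOIL1, so it is a partial deficiency. Peyer's patches were removed, part of the epithelial cells were pooled with the lamina propria cells, and live singlets were sorted as CD45+ (hematopoietic) or CD45- (epithelial, endothelial and stromal) cells. Each of the 4 genotypes had 3 libraries in each fraction, 24 libraries in 8 groups. Mice of both sexes were used and the labels do not give the sex. The study describes its samples as taken from individual mice, so the spread within a group is read as that between mice, and the labels do not say which CD45+ and CD45- libraries a mouse shares.

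In units of 1000000 counts, total counts ranged from 14.9 to 76.8 in CD45+ libraries and from 6.03 to 68.3 in CD45- libraries. Summed counts per 1000000 counts (CPM) of 5 hematopoietic genes, Ptprc among them, were 2733.9 to 3543 in CD45+ and 0.950 to 39.6 in CD45- libraries, and those of 8 epithelial genes were 59.8 to 433 in CD45+ libraries. Il4ra counts over the whole gene did not separate the ΔIEC from the f/f libraries in CD45- cells, at 45.0 to 128 and 55.9 to 156 CPM. The authors had removed 3 libraries as outliers, all of them Hoil1-/-. These were CD45+ f/f replicate 1, CD45+ ΔIEC replicate 3 and CD45- f/f replicate 3. Levels are given below for all 24 libraries, and tests for the 10 CD45+ and 11 CD45- libraries that remained, with all 12 of a fraction as an alternative.

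Promoter sequence is shown for the members whose window held the NF-kB consensus. Tnfaip3 and Tnip1 are known NF-kB targets and are plotted beside marker genes of CD45- cells below. Windows from 250 bases before to 50 bases after the transcript start (RefSeq, GRCm38.p6) existed for 8 of the 9 members, 13 windows in all, and none for Sharpin. The consensus was searched by name on both strands and was present in 1480 of the 32851 windows of all genes (4.51%), with 0.554% holding at least 2 matches and 0.0517% at least 3. Among the members it was found in a Tnfaip3 window with 2 separate matches, at positions -125 and -12 from the start, in the Tnip1 window with 3 matches that overlap in a single stretch beginning at position -58, and in the Cyld window with 1 match on the opposite strand, at position -155. No match was in the windows of Rbck1, Rnf31, Otulin, Spata2 and Ikbkg or in the other Tnfaip3 window. A match describes the letters of the window only. The sequences below run 5′ to 3′ on the gene's strand, end at the base before the RefSeq start, leave out bases that GENCODE places in exons, and carry the matches in capitals. They lie at chr10:19015411-19015547 (minus strand), chr11:54962941-54963190 (minus strand) and chr8:88696778-88697027 (plus strand).
Tnfaip3: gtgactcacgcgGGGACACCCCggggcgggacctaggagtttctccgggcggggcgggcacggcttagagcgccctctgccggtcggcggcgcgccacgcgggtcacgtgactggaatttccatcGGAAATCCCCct
Tnip1: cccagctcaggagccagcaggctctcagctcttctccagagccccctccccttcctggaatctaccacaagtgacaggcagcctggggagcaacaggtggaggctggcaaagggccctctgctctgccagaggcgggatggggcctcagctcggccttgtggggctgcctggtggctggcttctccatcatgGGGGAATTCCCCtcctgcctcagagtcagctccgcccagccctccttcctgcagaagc
Cyld: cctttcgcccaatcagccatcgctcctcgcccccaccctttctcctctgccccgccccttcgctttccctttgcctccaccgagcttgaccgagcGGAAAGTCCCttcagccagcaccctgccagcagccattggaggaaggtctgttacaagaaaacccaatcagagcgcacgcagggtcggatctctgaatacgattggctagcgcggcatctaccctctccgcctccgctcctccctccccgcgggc

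Rbck1 (ENSMUSG00000027466.15, chromosome 2 from 152316334 to 152332653, minus strand, GRCm38) was the member that fell in Hoil1-/- cells. Its CD45+ level was 122, 140.1 and 90.7 CPM in Hoil1+/+ f/f and at 159, 152 and 134 CPM in Hoil1+/+ ΔIEC replicates 1 to 3. In Hoil1-/- CD45+ cells it was 5.37, 10.5 and 5.38 CPM in f/f and at 15.9, 6.88 and 7.78 CPM in ΔIEC. The Hoil1-/- libraries thus held 4.04% to 11.95% of the Hoil1+/+ mean, and the groups did not overlap, which was so for 0.255% of genes over these 12 libraries. In CD45- cells the Hoil1+/+ libraries were at 90.8, 110.0 and 87.2 CPM in f/f and 104, 72.9 and 93.4 CPM in ΔIEC. The Hoil1-/- CD45- libraries were at 2.75, 7.18 and 0 CPM in f/f and 4.27, 7.31 and 3.01 CPM in ΔIEC, again below every Hoil1+/+ library. The groups did not overlap, in one direction or the other, for 0.0848% of genes. The library at 0 had no Rbck1 count at a depth where 3 counts are 0.403 CPM, and it is one of those removed. Counts over the whole gene do not show which exons the remaining reads came from.

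Averaged over the Il4ra genotypes, Rbck1 was lower in Hoil1-/- than in Hoil1+/+ cells by a log2 fold change of -3.81 (SE 0.32, 95% interval -4.53 to -3.09) in CD45+ and -4.23 (SE 0.33, -4.96 to -3.50) in CD45- cells. The adjusted p was 0.0069 and 0.00106 by edgeR's quasi-likelihood test. It was the single gene called among 17029 in CD45+ cells (0.00587%, with 5.85% at an unadjusted p under 0.05) and 1 of 3 among 16453 in CD45- cells (0.0182%). The paper, with its own edgeR model, reported further genes beside Rbck1 in CD45+ cells, among them Il5, Klrg1 and Nmur1. With all 12 CD45- libraries the Rbck1 fold change was -4.50 and the edgeR adjusted p 0.201, with 0% of genes called. Within f/f the change was -3.90 in CD45+ and -4.26 in CD45- cells, and within ΔIEC -3.71 and -4.20. The edgeR adjusted p was 0.0188 and 0.0115 in CD45- cells and missed the threshold of 0.05 in CD45+ cells, at 0.0949 and 0.115. The share of all genes called in these within-genotype tests was 0% in both CD45+ comparisons, 0.0365% in CD45- f/f and 0.00608% in CD45- ΔIEC. An unadjusted p under 0.05 was found there for 5.27% of genes in CD45+ f/f, 6.08% in CD45+ ΔIEC, 13.1% in CD45- f/f and 7.66% in CD45- ΔIEC. With all 12 CD45+ libraries both CD45+ values passed, at edgeR adjusted p of 0.0066 and 0.0112 (0.00623% of genes called in each), as they did by DESeq2 (8.18e-18 and 2.52e-15).

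**Figure D1:**
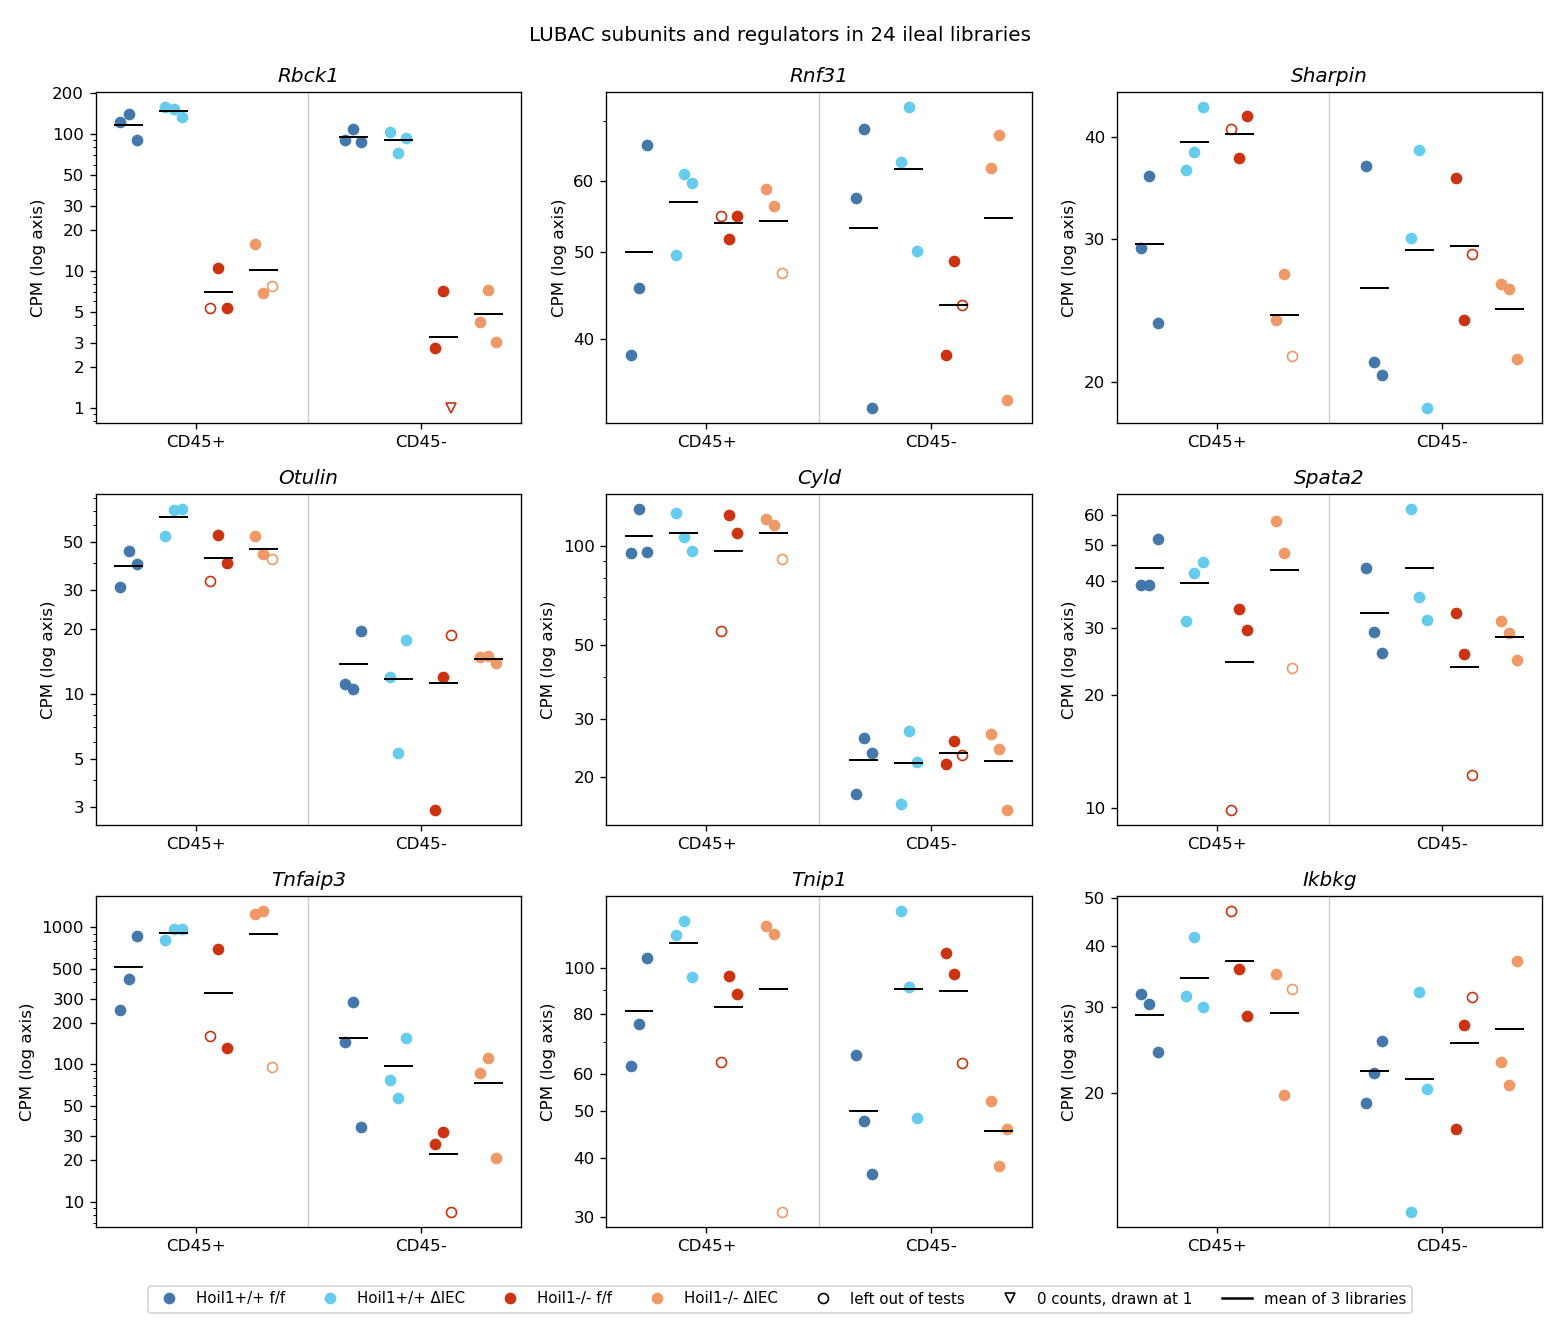
CPM of the 9 genes in each of the 24 libraries (log axis in every panel), CD45+ on the left and CD45- on the right of each panel. Points are libraries, coloured by genotype, open points are the 3 libraries left out of the tests, and horizontal lines are means of 3 libraries. Rbck1 is the one gene whose Hoil1-/- libraries lie apart from the Hoil1+/+ libraries in both fractions, while Otulin and Cyld differ between the fractions.

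Rnf31 (ENSMUSG00000047098.17, chromosome 14 from 55591708 to 55603693), the catalytic subunit of LUBAC, did not follow Rbck1. In CD45+ cells it ranged from 38.4 to 65.9 CPM in Hoil1+/+ (mean 53.4 ± 10.6, SD, n = 6) and from 47.4 to 58.9 CPM in Hoil1-/- libraries (54.0 ± 3.98). In CD45- cells it was at 57.6 ± 14.3 CPM in Hoil1+/+ and 49.1 ± 13.2 CPM in Hoil1-/- libraries. The groups overlapped in both fractions. The fold change was 0.04 on the log2 scale in CD45+ (95% interval -0.35 to 0.43) and -0.23 in CD45- cells (-0.78 to 0.32), so the intervals hold no 2-fold change in either direction. In these bulk samples fewer cells that express a gene and less RNA per cell cannot be told apart, here and in each result below. Of the exon bases of Rnf31, 123 are shared with Irf9 on the same strand, and how reads there were counted is not given in the sources used here.

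Sharpin (ENSMUSG00000022552.15, chromosome 15 from 76347040 to 76351111), the stabilising subunit that shares its role with HOIL1, did not pass the test either, but its Hoil1 effect ran in opposite directions in the Il4ra genotypes of CD45+ cells. In CD45+ f/f cells it was at 29.2, 35.8 and 23.6 CPM in Hoil1+/+ and 40.9, 37.7 and 42.5 CPM in Hoil1-/- libraries. In CD45+ ΔIEC cells it was at 36.4, 38.4 and 43.6 CPM in Hoil1+/+ and 23.8, 27.1 and 21.5 CPM in Hoil1-/- libraries. Every Hoil1-/- library was therefore above the Hoil1+/+ libraries in f/f and below them in ΔIEC. This pattern or its reverse was found in 0.467% of genes over the 12 CD45+ libraries. The change was 0.42 within f/f (edgeR adjusted p = 0.836) and -0.65 (SE 0.24) within ΔIEC (edgeR adjusted p = 0.775). The interaction was -1.07 (SE 0.33, -1.80 to -0.34), with an unadjusted p under 0.05 and an edgeR adjusted p of 0.694. Of all genes, 0% were called in this interaction and 7.01% had an unadjusted p under 0.05, and no alternative called a member there. In CD45- cells Sharpin ranged from 18.6 to 38.5 CPM over all 12 libraries, with an averaged change of -0.02 (-0.62 to 0.58).

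Per length of exon, Rbck1 was the most abundant transcript of the 3 LUBAC subunits in Hoil1+/+ and the least abundant in Hoil1-/- libraries. It made up 60.9% ± 5.05 (SD, n = 6) of their summed CPM per kilobase in CD45+ Hoil1+/+ libraries, beside 20.1% for Rnf31 and 19.03% for Sharpin, and 54.3% ± 7.89 in CD45- Hoil1+/+ libraries. In Hoil1-/- libraries it made up 9.64% ± 4.46 in CD45+ and 5.22% ± 3.34 in CD45- cells. The sum of the 3 was lower as well, from 47.2 ± 6.66 to 19.7 ± 2.39 CPM per kilobase in CD45+ and from 37.5 ± 4.56 to 16.5 ± 2.78 in CD45- cells. The shares and the sum contain Rbck1 itself and are given as a description, without a test.

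**Figure D2:**
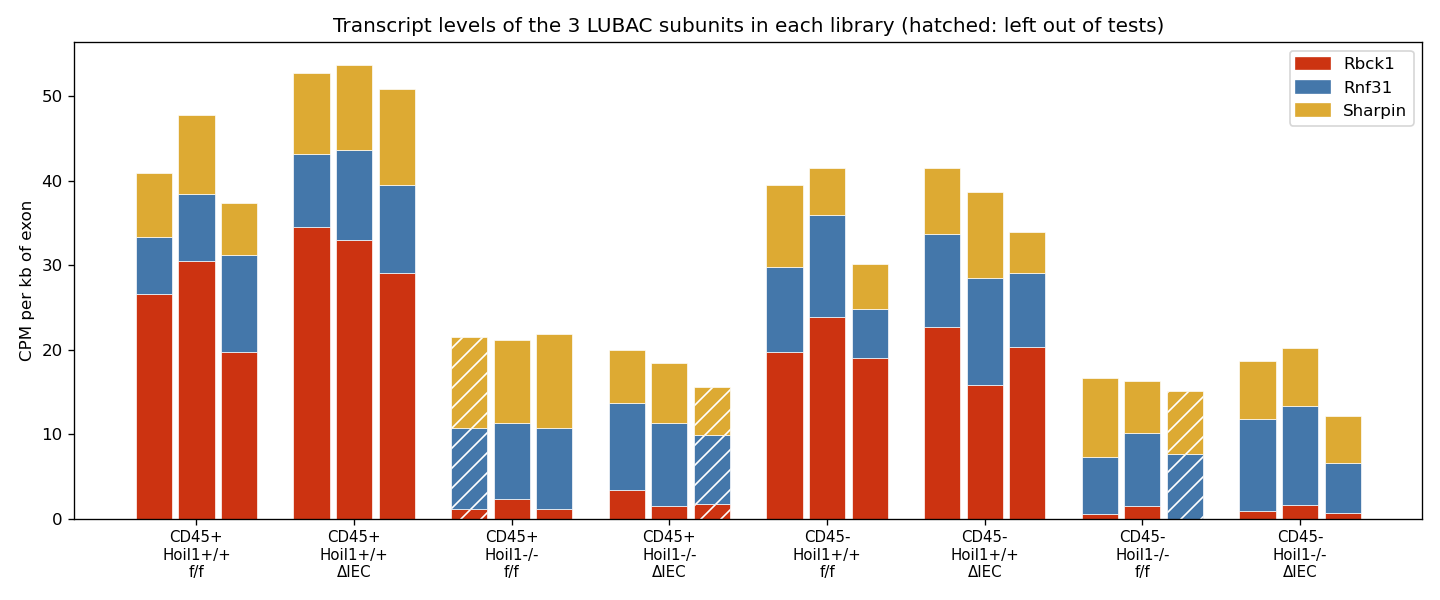
Stacked CPM per kilobase of exon of Rbck1, Rnf31 and Sharpin in each of the 24 libraries, by fraction and genotype, with hatched bars for the 3 libraries left out of the tests. The Rbck1 part shrinks to between 0% and 17.3% of the bar in Hoil1-/- libraries, while the Rnf31 and Sharpin parts keep heights that overlap with those of Hoil1+/+ libraries.

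Otulin (ENSMUSG00000046034.7, chromosome 15 from 27542635 to 27630693), whose product removes linear chains, showed no change that passed the test. In CD45+ cells it was at 31.2, 45.8 and 39.8 CPM in Hoil1+/+ f/f, 53.6, 70.4 and 71.4 CPM in Hoil1+/+ ΔIEC, 33.3, 54.2 and 40.2 CPM in Hoil1-/- f/f and 53.3, 44.0 and 42.0 CPM in Hoil1-/- ΔIEC libraries. The Hoil1-/- ΔIEC libraries lay below the Hoil1+/+ ΔIEC libraries, the closest pair at 53.3 and 53.6 CPM, as 11.6% of genes did in one direction or the other. The change within ΔIEC was -0.44 (edgeR adjusted p = 0.778) and the averaged change -0.09 (-0.48 to 0.31). In CD45- cells Otulin ranged from 2.91 to 19.5 CPM, with means of 12.7 ± 5.15 in Hoil1+/+ and 12.8 ± 5.34 in Hoil1-/- libraries (SD, n = 6) and an averaged change of -0.28 (-1.21 to 0.64). This is the widest interval among the members in CD45- cells after that of Tnfaip3.

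Cyld (ENSMUSG00000036712.15, chromosome 8 from 88697028 to 88751945) did not differ between the Hoil1 genotypes beyond the spread of the libraries. It was at 108 ± 15.8 CPM in Hoil1+/+ and 103 ± 26.1 CPM in Hoil1-/- CD45+ libraries, and at 22.3 ± 4.43 and 22.97 ± 3.92 CPM in CD45- libraries (SD, n = 6). The averaged changes were 0.11 (-0.25 to 0.46) and 0.05 (-0.46 to 0.57). Its lowest CD45+ value, 55.4 CPM, was in the removed f/f replicate 1, and the other CD45+ libraries held 91.5 to 129.7 CPM.

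Spata2 (ENSMUSG00000047030.15, chromosome 2 from 167481133 to 167492887), the adaptor between CYLD and HOIP, was lower in some Hoil1-/- groups without passing the test. Its Hoil1 effects in the tested CD45+ libraries had opposite signs in the Il4ra genotypes. In CD45+ f/f cells it was at 39.3, 39.0 and 52.0 CPM in Hoil1+/+ and 9.87, 33.7 and 29.6 CPM in Hoil1-/- libraries, with no overlap, as for 6.45% of genes. In CD45+ ΔIEC cells the order did not hold, with 31.4, 42.2 and 45.0 CPM in Hoil1+/+ and 57.8, 47.6 and 23.5 CPM in Hoil1-/- libraries. The libraries at 9.87 and 23.5 CPM are among those removed by the authors. Without the latter the Hoil1-/- ΔIEC libraries lay above the Hoil1+/+ ΔIEC libraries. The share of all genes with such an order in the tested libraries is not given here. The changes were -0.47 within f/f (SE 0.24) and 0.40 within ΔIEC (SE 0.23), and the interaction was 0.87 (0.12 to 1.61), with an unadjusted p under 0.05 and an edgeR adjusted p of 0.694. With the B cell marker level as a covariate the f/f change was -1.02 (SE 0.37, edgeR adjusted p = 0.747) and the interaction 1.57 (SE 0.49, edgeR adjusted p = 0.507). In CD45- ΔIEC cells the Hoil1-/- libraries, at 31.5, 29.2 and 24.7 CPM, lay below the Hoil1+/+ libraries, at 62.4, 36.4 and 31.6 CPM, as 11.9% of genes did in either direction. The change there was -0.60 (-1.33 to 0.13, edgeR adjusted p = 0.648). It was -0.21 (SE 0.38, edgeR adjusted p = 1.00) with the level of epithelial marker genes as a covariate, whose sums are given beside Tnip1 below, and -0.24 without the Hoil1+/+ ΔIEC library at 62.4 CPM.

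Tnfaip3 (ENSMUSG00000019850.11, chromosome 10 from 19000910 to 19015657) encodes the ubiquitin-editing enzyme A20, and its level varied widely between libraries of the same group. In CD45+ cells it was at 249, 418 and 862 CPM in Hoil1+/+ f/f, 802, 966 and 974 CPM in Hoil1+/+ ΔIEC, 162, 696 and 133 CPM in Hoil1-/- f/f and 1259, 1313 and 95.5 CPM in Hoil1-/- ΔIEC libraries. The Hoil1-/- libraries thus held both the highest and the lowest values, and the averaged change was 0.09 with an interval from -0.92 to 1.09. The CD45- levels were 147, 287 and 34.7 CPM in Hoil1+/+ f/f, 77.6, 56.6 and 156 CPM in Hoil1+/+ ΔIEC, 26.3, 32.0 and 8.36 CPM in Hoil1-/- f/f and 86.7, 112 and 20.6 CPM in Hoil1-/- ΔIEC libraries. The f/f groups did not overlap, as for 15% of genes, though 34.7 and 32.0 CPM are close, and the ΔIEC groups did.

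The averaged Hoil1 effect on Tnfaip3 in CD45- cells was -1.41 (SE 0.55, -2.61 to -0.20), with an unadjusted p under 0.05 and an edgeR adjusted p of 0.926. An unadjusted p under 0.05 was found for 5.28% of all genes there. Within f/f it was -2.41 (SE 0.86, edgeR adjusted p = 0.352), and within ΔIEC -0.41 (-1.95 to 1.14). Genes induced by cell dissociation were lower as well in the Hoil1-/- f/f libraries. The summed CPM of 8 such genes (Fos, Fosb, Jun, Junb, Egr1, Atf3, Hspa1a and Hspa1b, each detected in every library) was 1297, 1882 and 2789 in CD45- Hoil1-/- f/f libraries and 10073, 16511 and 6958 in Hoil1+/+ f/f libraries. In ΔIEC libraries the sums overlapped, at 3699 to 11254.5 in Hoil1+/+ and 4351 to 7757 in Hoil1-/-. Over the CD45- libraries the highest Tnfaip3 levels, at 287, 156 and 147 CPM, were in the libraries with the highest stress sums, at 16511, 11254.5 and 10073. The order of the 2 differed in other libraries, with 77.6 CPM at 3699 in Hoil1+/+ ΔIEC replicate 1 and 20.6 CPM at 4351 in Hoil1-/- ΔIEC replicate 3. Whether stress accounts for the Tnfaip3 levels was not tested by these values. Sums of 6 smooth muscle genes, not used as a covariate, also separated the f/f groups, at 287.8 to 1997 in Hoil1-/- and 3191 to 4927 in Hoil1+/+. With the mean log2 CPM of the 8 dissociation genes as a covariate, the f/f value was 1.26 (SE 0.91, edgeR adjusted p = 1.00) and the averaged value 0.40. This covariate was added after the data were seen. In f/f the stress sums of the Hoil1 genotypes did not overlap, so genotype and stress level cannot be told apart there. With the epithelial marker level as a covariate instead, the averaged value was -1.31 (SE 0.44, edgeR adjusted p = 0.630) with an unadjusted p under 0.05, and the f/f value -1.22 (SE 0.79, edgeR adjusted p = 0.786).

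Tnip1 (ENSMUSG00000020400.17, chromosome 11 from 54910785 to 54962917), the gene of ABIN1, had Hoil1 effects of opposite sign in the Il4ra genotypes of CD45- cells, without passing the test. In CD45- f/f cells it was at 65.8, 47.8 and 37.0 CPM in Hoil1+/+ and 108, 97.2 and 63.2 CPM in Hoil1-/- libraries. In CD45- ΔIEC cells it was at 132, 91.2 and 48.6 CPM in Hoil1+/+ and 52.5, 38.4 and 45.9 CPM in Hoil1-/- libraries. The groups overlapped in both genotypes over all libraries. The change was 1.04 within f/f (edgeR adjusted p = 0.361) and -0.98 within ΔIEC (edgeR adjusted p = 0.610). The interaction of -2.02 (SE 0.55, -3.24 to -0.81) had an unadjusted p under 0.05 and an edgeR adjusted p of 0.129, in a comparison with 0% of genes called and 20.7% at an unadjusted p under 0.05. DESeq2 gave -2.12 with an adjusted p of 0.0155, and edgeR's likelihood ratio test an adjusted p of 0.0280. Tnip1 was not alone there, since these tools also called 9 and 8 of 82 other pathway genes in this interaction. The share of all genes that they called is not given here.

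Epithelial marker sums varied alongside Tnip1 in the CD45- libraries. The summed CPM of 8 epithelial genes (Epcam, Vil1, Cdh1, Krt8, Krt18, Krt19, Krt20 and Cdx1) was 6656, 1796 and 2876 in Hoil1+/+ f/f, 12462, 11644 and 3209.9 in Hoil1-/- f/f, 11378, 9206 and 3078 in Hoil1+/+ ΔIEC and 2529, 1175 and 5577 in Hoil1-/- ΔIEC libraries. The 4 CD45- libraries above 90 CPM of Tnip1 were the 4 with the highest epithelial sums. With the epithelial level as a covariate the interaction was -0.68 (SE 0.64, edgeR adjusted p = 0.930). In the tested f/f libraries the epithelial sums of the Hoil1 genotypes did not overlap, so genotype and cell makeup cannot be told apart there. The same holds for the f/f value of Tnfaip3 with this covariate. In CD45+ cells Tnip1 was at 97.1 ± 24.2 CPM in Hoil1+/+ and 86.5 ± 34.7 CPM in Hoil1-/- libraries (SD, n = 6), with an averaged change of 0.12 (-0.27 to 0.52). The lowest of these, 30.7 CPM, was in the removed ΔIEC replicate 3, which also held the lowest CD45+ level of Tnfaip3.

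**Figure D3:**
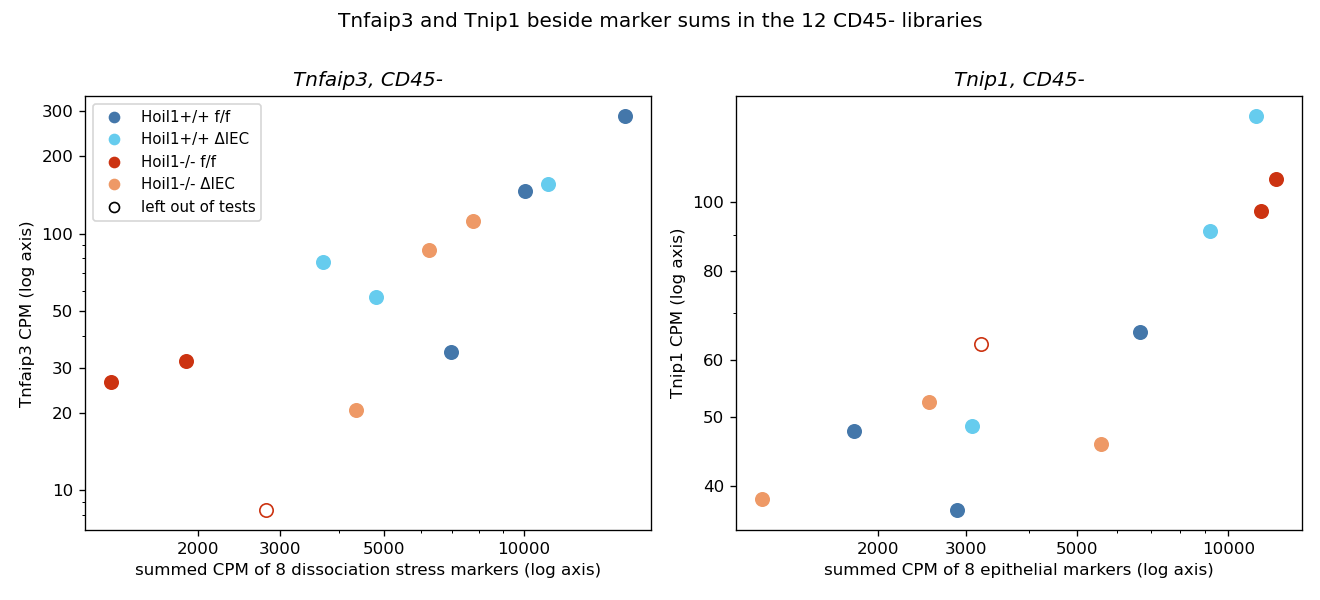
Tnfaip3 CPM against the summed CPM of 8 dissociation stress genes (left) and Tnip1 CPM against the summed CPM of 8 epithelial genes (right) in the 12 CD45- libraries, both axes log. Points are libraries coloured by genotype, and the open point is the library left out of the tests. The Hoil1-/- f/f libraries hold the 3 lowest stress sums and Tnfaip3 levels of at most 32.0 CPM, while Hoil1-/- ΔIEC replicate 3 holds 20.6 CPM at a stress sum of 4351. The 4 libraries with the highest epithelial sums hold the 4 highest Tnip1 levels.

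Ikbkg (ENSMUSG00000004221.16, chromosome X from 74393290 to 74453854), whose product NEMO reads linear chains, did not differ between the Hoil1 genotypes beyond the spread of the libraries. It was at 31.6 ± 5.67 CPM in Hoil1+/+ and 33.2 ± 8.99 CPM in Hoil1-/- CD45+ libraries, and at 21.8 ± 6.91 and 26.2 ± 7.47 CPM in CD45- libraries (SD, n = 6). The averaged changes were -0.10 (-0.56 to 0.37) and 0.18 (-0.50 to 0.87). Of its exon bases, 5.154% lie opposite those of G6pdx.

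The 8 members other than Rbck1 thus had averaged Hoil1 effects between -0.11 and 0.12 in CD45+ cells, with edgeR adjusted p from 0.956 to 1.00. In CD45- cells the effects ran from -1.41 to 0.18, and Tnfaip3 was the one with an unadjusted p under 0.05. The intervals differ in width, and only for Tnfaip3 in CD45+ cells and for Otulin and Tnfaip3 in CD45- cells did they reach past a 2-fold change. None of the 9 members had a Hoil1 effect that differed between the fractions (0.0266% of genes called and 5.48% at an unadjusted p under 0.05, 0 members at an unadjusted p under 0.05, and 0 called by DESeq2 or the likelihood ratio test). The largest such difference was that of Tnfaip3, at 1.51 (SE 0.79, edgeR adjusted p = 0.957).

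**Figure D4:**
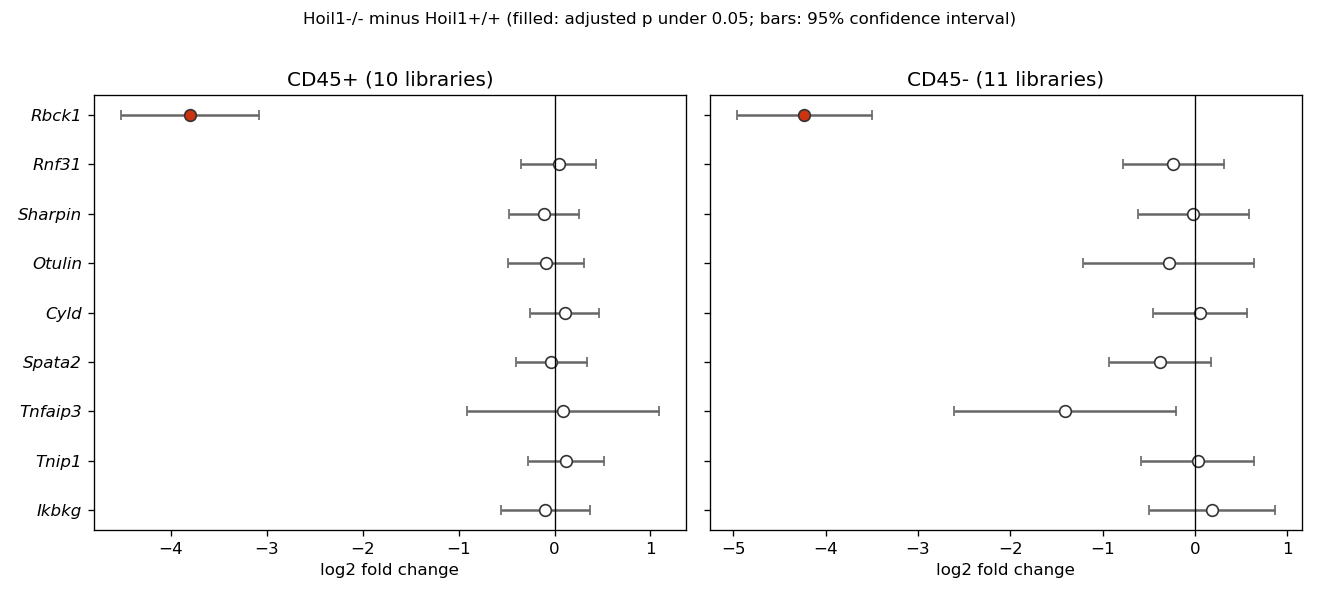
Log2 fold change of each member in Hoil1-/- against Hoil1+/+ cells, averaged over the Il4ra genotypes, with 95% confidence intervals, in 10 CD45+ (left) and 11 CD45- (right) libraries. The filled point, Rbck1, has an adjusted p under 0.05 in each fraction, at -3.81 and -4.23, and the other intervals include 0 except that of Tnfaip3 in CD45- cells.

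The epithelial deletion of Il4ra went with no call among the members. In CD45+ cells, in which Il4ra is not deleted, 3 members had positive differences of ΔIEC against f/f libraries with an unadjusted p under 0.05. Such a p was found for 10.6% of all genes, in one direction or the other, and 0.00587% were called. Tnfaip3 had a log2 difference of 1.25 (SE 0.46), Tnip1 of 0.44 (SE 0.18) and Otulin of 0.40 (SE 0.18), with edgeR adjusted p of 0.415, 0.449 and 0.463. Of 21 other NF-kB targets, listed below, 19 were above 0 there, with a median of 0.65 and 7 at an unadjusted p under 0.05. Of 18 receptor-complex genes 16 were above 0, with a median of 0.36 and 6 at such a p. Markers of B lineage cells moved in the same comparison. The 6 B cell genes had a median difference of 1.26, with 4 above 0 and 4 at an unadjusted p under 0.05, and the 6 plasma cell genes (Jchain, Sdc1, Prdm1, Xbp1, Mzb1 and Tnfrsf17) one of -1.18, with 0 above 0 and 5 at an unadjusted p under 0.05, beside -0.01 over all genes. Their summed CPM over all libraries lay for B cell genes from 253 to 713 in Hoil1+/+ f/f, 456 to 1450.05 in Hoil1+/+ ΔIEC, 262 to 798 in Hoil1-/- f/f and 456 to 717 in Hoil1-/- ΔIEC libraries. For plasma cell genes it lay from 20140 to 49770 in Hoil1+/+ f/f, 12101 to 16456 in Hoil1+/+ ΔIEC, 15684 to 34600 in Hoil1-/- f/f and 8939 to 40834 in Hoil1-/- ΔIEC libraries. With the B cell level as a covariate the differences were 0.68 for Tnfaip3, 0.38 for Tnip1 and 0.22 for Otulin (edgeR adjusted p = 0.950, 0.927 and 0.991), and the part of the plasma cell genes was not tested. In CD45- cells no member reached an unadjusted p under 0.05, with 5.9% of all genes doing so and 0% called, and the edgeR adjusted p ran from 0.916 to 1.00. DESeq2 and the likelihood ratio test called no member in either fraction. Of 83 other pathway genes in CD45+ cells, DESeq2 called 6 (Bcl3, Birc3, Nfkbie, Rel, Traf1 and Zc3h12a). The likelihood ratio test called 3 of these (Rel, Traf1 and Zc3h12a), and edgeR's quasi-likelihood test called 0. The share of all genes that DESeq2 and the likelihood ratio test called there is not given here.

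Otulin, Cyld and Tnfaip3 differed between the fractions. In Hoil1+/+ libraries 3 of the 9 were higher in CD45+ than in CD45- cells by edgeR's test and none was lower, where 42.4% of all genes were called and 18.6% were called and higher. Cyld was higher by 2.28 on the log2 scale (SE 0.18, edgeR adjusted p = 1.55e-07), Otulin by 1.98 (SE 0.32, 0.000118) and Tnfaip3 by 2.47 (SE 0.54, 0.00152). Over all 24 libraries Cyld ran from 55.4 to 129.7 CPM in CD45+ and from 15.9 to 27.5 CPM in CD45- cells, and Otulin from 31.2 to 71.4 and from 2.91 to 19.5 CPM. Tnfaip3 ran from 95.5 to 1313 CPM in CD45+ and from 8.36 to 287 CPM in CD45- cells. The differences of Tnip1 (0.50), Ikbkg (0.53), Rbck1 (0.50), Sharpin (0.31), Spata2 (0.13) and Rnf31 (-0.11) did not pass.

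In Hoil1-/- libraries, where 36% of all genes were called and 17.5% were called and higher, the same 3 genes passed, Cyld at 2.35 (edgeR adjusted p = 1.15e-06), Otulin at 2.20 (0.000274) and Tnfaip3 at 3.98 (0.000262). Rbck1 was the fourth, with a remaining level higher in CD45+ cells by 0.94 (SE 0.33, edgeR adjusted p = 0.0343), or by 1.05 with all libraries (edgeR adjusted p = 0.105, with 38.8% of genes called). The share of the Hoil1+/+ mean that remained overlapped, at 4.04% to 11.95% in CD45+ and 0% to 7.85% in CD45- cells. This fit treats the CD45+ and CD45- libraries as independent. With genotype and age as a block, which matches some of them and was added after the data were seen, the remaining Rbck1 level differed by 0.54 (SE 0.39, edgeR adjusted p = 0.366).

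**Figure D5:**
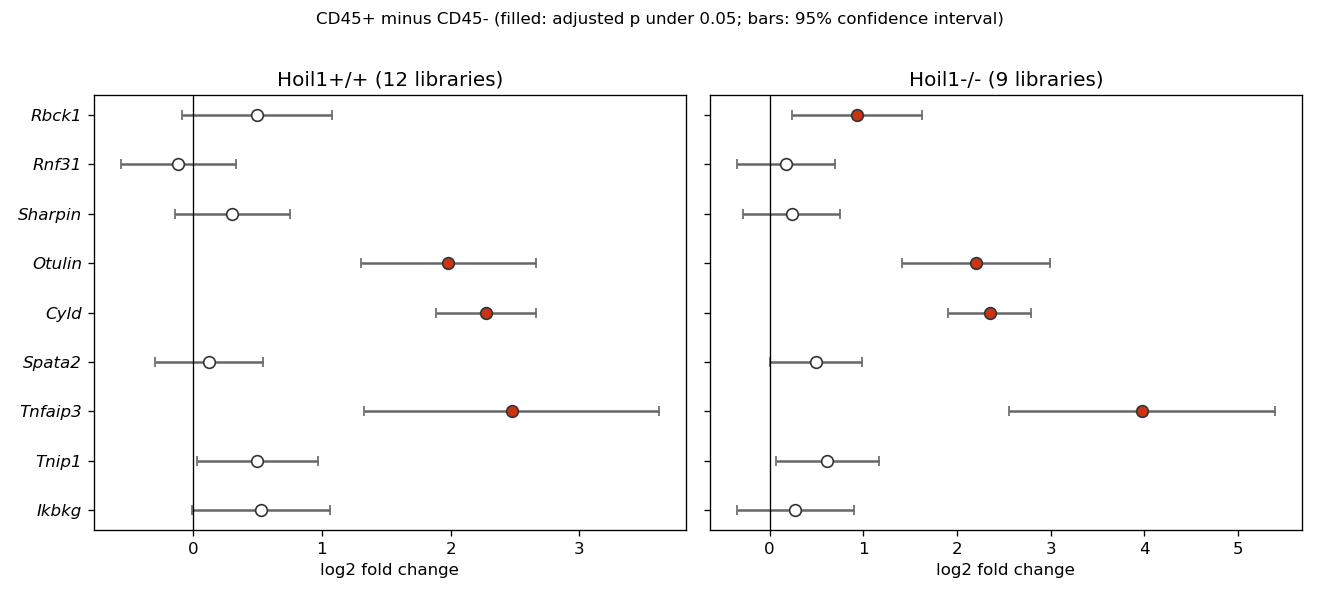
Log2 fold change of each member in CD45+ against CD45- cells, averaged over the Il4ra genotypes, with 95% confidence intervals, in 12 Hoil1+/+ (left) and 9 Hoil1-/- (right) libraries. Filled points have an adjusted p under 0.05, which were Otulin, Cyld and Tnfaip3 on the left and the same genes with Rbck1 on the right.

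On the scale of CPM per kilobase of exon, the members of Hoil1+/+ CD45+ cells fell into tiers. Tnfaip3 had the highest mean at 98.5 ± 42.2 (SD, n = 6), followed by Otulin at 30.7 ± 9.66, Rbck1 at 28.9 ± 5.30 and Tnip1 at 27.4 ± 6.83. All of these overlapped with one another. The lowest Tnfaip3 library was at 34.47, and the highest values of Otulin, Rbck1 and Tnip1 were 42.1, 34.56 and 35.5. The next 4, Rnf31 at 9.31 ± 1.84, Spata2 at 9.20 ± 1.53, Sharpin at 9.05 ± 1.86 and Cyld at 8.62 ± 1.26, overlapped with one another and with none of the genes above them, and Ikbkg was below them at 3.90 ± 0.699. Tnfaip3 stood at the 96.9 percentile of 16997 genes by this measure and Ikbkg at the 58.2 percentile. In Hoil1+/+ CD45- cells Rbck1 (20.2 ± 2.85), Tnip1 (19.9 ± 10.0) and Tnfaip3 (17.5 ± 12.8) led, and Cyld was the lowest at 1.77 ± 0.353, the 37.9 percentile of 16429 genes. Each neighbour in that order overlapped with the next except Sharpin (7.23 ± 2.30) and Ikbkg (2.68 ± 0.853).

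Other genes of the pathway were read in the same tests, from lists of receptor-complex proteins, chain-reading adaptors and kinases, further deubiquitinases and A20 cofactors, NF-kB targets, cell death proteins and ligases of the same RBR class as HOIP. By edgeR's quasi-likelihood test 0 of 83 were called for the averaged Hoil1 effect in CD45+ and 0 of 82 in CD45- cells, with 4 and 5 at an unadjusted p under 0.05. DESeq2 and the likelihood ratio test also called 0 in CD45+ cells, and each called 2 in CD45- cells, Cxcl1 and Nfkbiz. The lower values lay in f/f. Cxcl1, a neutrophil chemokine, was at 15.5, 22.3 and 4.22 CPM in CD45- Hoil1+/+ f/f libraries and at 0, 0 and 6.91 CPM in Hoil1-/- f/f libraries, the last of which was removed by the authors. In ΔIEC it was at 13.7, 8.01 and 11.04 CPM in Hoil1+/+ and 9.46, 18.005 and 0.547 CPM in Hoil1-/- libraries, a log2 change of -0.24 (SE 0.92). Nfkbiz, an inducible IkB family member, had changes of -3.85 (SE 0.67, edgeR adjusted p = 0.0945) within f/f and -0.02 (SE 0.50) within ΔIEC. Icam1, an adhesion molecule, had -3.47 (SE 0.89, edgeR adjusted p = 0.234) and 0.32 (SE 0.68). The interactions of Nfkbiz (3.83, SE 0.81) and Icam1 (3.79, SE 1.08) had edgeR adjusted p of 0.120 and 0.134. Both passed by DESeq2 and the likelihood ratio test, as did that of Cxcl1. These tools called 9 and 8 of the 82 genes in that interaction, and edgeR's quasi-likelihood test 0. The share of all genes that DESeq2 and the likelihood ratio test called there is not given here. In CD45+ cells the smallest p belonged to Nfkb1, an NF-kB subunit (0.53, SE 0.16), Cflar, an inhibitor of caspase-8 (0.46, SE 0.18), and Zranb1, a deubiquitinase (0.51, SE 0.20), with an edgeR adjusted p of 0.783. The 14 chain readers and kinases had a median change of 0.15 with 14 above 0 in CD45+ cells, and 0.15 with 10 of 13 above 0 in CD45- cells. The medians of the receptor-complex genes were 0.04 and -0.14, of the further deubiquitinases 0.06 and 0.07, of the cell death genes -0.08 and 0.09 and of the RBR ligases 0.01 and -0.36. The median changes of the 21 NF-kB targets differed between the Il4ra genotypes, with 0 called by edgeR's quasi-likelihood test in any of these comparisons. In CD45+ cells their median change was 0.06 when averaged (12 above 0), -0.39 within f/f (6 above 0) and 0.69 within ΔIEC (19 above 0), beside -0.05, 0 and -0.06 over all genes. Their median interaction there was 0.97, with 20 above 0 and 5 at an unadjusted p under 0.05, beside -0.11 over all genes. In CD45- cells the medians were -0.37 when averaged (5 above 0), -0.86 within f/f (3 above 0) and -0.01 within ΔIEC (9 above 0), beside -0.08, -0.17 and 0.06 over all genes. The median interaction was 1.24, with 16 above 0 and 5 at an unadjusted p under 0.05, beside 0.29 over all genes. By edgeR's quasi-likelihood test 20.7% of all genes had such a p in the CD45- interaction and 7.01% in the CD45+ interaction. The 8 dissociation stress genes had median interactions of 1.17 in CD45+ and 2.27 in CD45- cells, and their part in the medians of the NF-kB targets was not tested.

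Between the fractions 40 of the 83 pathway genes were called in Hoil1+/+ and 39 in Hoil1-/- libraries, where 42.4% and 36% of all genes were called, in either direction. In Hoil1+/+ libraries these were 11 higher and 1 lower in CD45+ cells of 18 receptor-complex genes, 5 and 2 of 14 chain readers and kinases, 2 and 1 of 12 further deubiquitinases and cofactors, 9 and 1 of 21 NF-kB targets, 3 and 0 of 7 cell death genes and 3 and 2 of 11 RBR ligases, where 18.6% of all genes were called and higher. Otulinl, a relative of Otulin, had the difference with the smallest p (5.24 in Hoil1+/+ and 4.56 in Hoil1-/- libraries). Birc3, which encodes the ubiquitin ligase cIAP2 of the receptor complex, was higher in CD45+ cells by 2.66 and 3.19, and Rel, an NF-kB subunit, by 3.21 and 4.18.

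The neighbourhood of Rbck1 was read because the targeted allele sits there. Of 224 annotated genes that start within 500 kb of it, 19 were tested in CD45+ and 18 in CD45- cells, and edgeR's quasi-likelihood test called 0 in either fraction for the averaged Hoil1 effect. DESeq2 and the likelihood ratio test also called 0. An unadjusted p under 0.05 was found for 0 in CD45+ cells and for 1 in CD45- cells, Fam110a (0.64). The changes ran from -6.17 to 1.67 in CD45+ and from -1.21 to 0.64 in CD45- cells. Trib3, which starts 11379 bases from Rbck1, was at -1.80 (-4.91 to 1.31) in CD45+ and -1.21 (-3.10 to 0.68) in CD45- cells. Its intervals hold falls past 2-fold, so the absence of calls does not show that the neighbours were unchanged.

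After centring each fraction, the gene whose log2 CPM was most like Tnfaip3 over the 21 libraries was Irf1 (Pearson r 0.927), and for Tnip1 it was Gtpbp2 (0.908). The nearest genes were Acot6 for Rbck1 (0.754), Sympk for Rnf31 (0.839), Rtkn for Sharpin (0.860), Gypc for Otulin (0.877), Diaph1 for Cyld (0.799), Pilrb2 for Spata2 (0.803) and Papolg for Ikbkg (0.781), each the highest of 18778 genes. Among the members the highest r was that of Rnf31 with Tnfaip3 (0.649) and the lowest that of Spata2 with Ikbkg (-0.577), while Rbck1 had r of 0.167 with Rnf31 and 0.03 with Sharpin. These values describe libraries that differ in genotype, depth and cell makeup together.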

How the data were processed

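RNA of CD45+ and CD45- cells was sequenced with a poly-A, strand-selecting kit. After cutadapt trimming and STAR alignment to mm10 (GRCm38), the authors assigned reads to ENSEMBL genes with featureCounts and deposited raw counts, pooling no replicates. The counting options are not given in the sources used here. From these counts, CPM were scaled by TMM over all 24 libraries, and exon lengths, symbols and positions came from GENCODE release M21, which held 38872 of the 39056 gene IDs. The main test was the two-sided quasi-likelihood test of edgeR 4.0.16 (R 4.3.3) with a mean per group, fitted on all genes kept by its filter (minimum count 10, minimum total 15), and Benjamini-Hochberg adjusted p-values were held to 0.05. Each fraction was fitted alone, and both together for comparisons between fractions. Covariates were Xist, the B cell (CD45+) or epithelial (CD45-) marker mean and, added after the data were seen, the dissociation stress mean, with a block of genotype and age between fractions. Other alternatives were all libraries, RLE scaling, no filter, DESeq2 1.42.0, edgeR's likelihood ratio test and exactTest, removal of 692 immunoglobulin and T cell receptor genes, and leaving out each library. The scripts were tested on simulated data. Replicates were numbered in order of deposition. Levels per length divide CPM by the merged exon length of all isoforms. Of the 83 pathway genes, those named had the smallest p, at most 3 without a call and at most 5 with one, save Rel and Birc3, picked out of those 5, and genes called by another tool. Likeness is Pearson's r of log2(CPM + 1). The members and lists were chosen with earlier results of these data known. Plots used matplotlib 3.10.9.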

Additional observations from a re-analysis of the deposited data

Results flagged for a closer look

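Sharpin in CD45+ cells stood out because its Hoil1 effects in the Il4ra genotypes ran in opposite directions, with a difference between ΔIEC and f/f of -1.07 on the log2 scale (SE 0.33, unadjusted p under 0.05, edgeR adjusted p = 0.694 over all genes). With all 12 CD45+ libraries the difference was -1.11, with the B cell marker level as a covariate (6 genes, 253 to 1450.05 summed CPM in CD45+ libraries) -1.11, and without each library in turn it lay between -1.24 and -0.93, with edgeR adjusted p from 0.201 to 1.00. In the 36 sets of libraries formed for each member by fraction and Hoil1 genotype, no library stood apart by Dixon's test, in which chance marks about 1 in 20 sets.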

How the results depend on the processing

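The direction of every member called above was the same under every alternative run. In CD45- cells the averaged Hoil1 effect called 1 member, Rbck1, under every alternative except all libraries, which called 0 (-4.50, edgeR adjusted p = 0.201). Within f/f in CD45+ cells the number called went from 0 to 1, Rbck1, with all libraries, no filter, DESeq2, the likelihood ratio test, removal of immunoglobulin genes and exactTest, and within ΔIEC from 0 to 1 with all libraries, DESeq2, the likelihood ratio test and exactTest. Within f/f in CD45- cells 1 member, Rbck1, was called, and 0 with all libraries (-4.80, edgeR adjusted p = 0.184), the epithelial covariate (-3.83, 0.0545) and the dissociation stress covariate (-3.43, 0.747). Leaving out single libraries gave 0 to 1 there, with 0 without Hoil1-/- f/f replicate 1 (-3.77, edgeR adjusted p = 0.0572), without Hoil1+/+ f/f replicates 1, 2 or 3 (0.0658, 0.0770 and 0.0771) and without Hoil1+/+ ΔIEC replicate 1 (0.0534). Within ΔIEC in CD45- cells Rbck1 was lost with all libraries (0 called, -4.20, edgeR adjusted p = 0.805) and without Hoil1-/- ΔIEC replicate 1 (0.232), replicate 3 (0.107) or Hoil1+/+ ΔIEC replicate 1 (0.0679), a range of 0 to 1. The interaction in CD45- cells went from 0 to 1, Tnip1, with DESeq2, the likelihood ratio test and without Hoil1+/+ ΔIEC replicate 3 (-2.34, edgeR adjusted p = 0.0260). DESeq2 and the likelihood ratio test also called 9 and 8 of 82 other pathway genes in this interaction. The share of all genes called under these settings is not given here, so the call does not set Tnip1 apart from other genes. The cause of these changes was not tested. Where leaving out a library left 1 in a group, the fit assumes that it varies like the other groups.

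Between the fractions the number of members called was 3 to 4 in Hoil1+/+ and 3 to 5 in Hoil1-/- libraries under every alternative. The call that Rbck1 was higher in CD45+ Hoil1-/- cells was lost with all libraries, with the Xist covariate (0.87, edgeR adjusted p = 0.0604) and without CD45- Hoil1-/- f/f replicate 1 (0.68, 0.159), CD45- Hoil1-/- ΔIEC replicate 1 (0.90, 0.0572) or replicate 3 (0.82, 0.0662), CD45+ Hoil1-/- f/f replicate 2 (0.67, 0.177) or CD45+ Hoil1-/- ΔIEC replicate 1 (0.57, 0.251). Tnip1 passed in Hoil1+/+ without CD45- Hoil1+/+ f/f replicate 1 (0.62, edgeR adjusted p = 0.0434) or ΔIEC replicate 1 (0.72, 0.0188), and in Hoil1-/- without CD45- Hoil1+/+ ΔIEC replicate 3 (0.62, 0.0292), and Ikbkg in Hoil1+/+ without CD45- Hoil1+/+ ΔIEC replicate 2 (0.74, 0.0241). No paired analysis by mouse was possible because the labels number no replicates and tie no libraries to a mouse, litter or day. Genotype and age give a partial match across the fractions, since 17 of the 21 libraries share both with a library of the other fraction, while several mice of a genotype share an age. With genotype and age as a block, chosen after the data were seen, Otulin, Cyld and Tnfaip3 were called in both Hoil1 genotypes, Tnip1 passed in Hoil1+/+ (0.67, edgeR adjusted p = 0.0208) and Rbck1 was lost in Hoil1-/- libraries, as given above, while the difference between the Hoil1 effects on Tnfaip3 in the fractions was 0.16 (edgeR adjusted p = 1.00). With 2 or 3 libraries in a group, depths that differ by over 10-fold in CD45- cells, and whole-gene counts, small changes and changes in single exons were not detectable here. Larger changes could also go uncalled. In CD45+ cells 6 marker genes of group 2 innate lymphoid cells (Nmur1, Klrg1, Il5, Il17rb, Gata3 and Il13) had a median averaged Hoil1 change of 3.78. All 6 had an unadjusted p under 0.05, as 5.85% of all genes did, and edgeR's quasi-likelihood test called 0 of them. A missing call therefore does not show that a gene was unchanged.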
